A study of Mus musculus with 6 samples.

Results

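Scavenger receptors are membrane proteins that bind modified lipoproteins, lipids, dying cells and polyanions, and carry many of these ligands into the cell for breakdown in lysosomes. 7 of their genes, *Msr1*, *Marco* and *Colec12* of class A, *Cd36* and *Scarb1* of class B, *Cd68* of class D and *Olr1* of class E, were followed in spinal microglia of the SOD1 G93A mouse model of amyotrophic lateral sclerosis (ALS). The genes were chosen by name, with earlier results of these data known. Every probe set whose annotation gives 1 of these symbols and no other was used. That made 15 of the 45037 probe sets of the arrays and 7 of the 18193 genes with a probe set of their own. A probe set is the group of short probes on the array that reads 1 transcript. 3 arrays were of SOD1 G93A and 3 of WT mice, all males at postnatal day 90, an early symptomatic age. The SOD1 G93A mice (B6SJL background) carried many copies of human SOD1 in a form mutated in familial ALS, and their litter-matched WT controls carried none. The probe sets are designed for mouse transcripts. Whether any of them read the transgene was not examined, so it was not used as a check of the genotype labels. CD11b-positive cells were sorted from the lumbar cord, and the RNA on an array came from 6 or more mice pooled. Arrays of a genotype therefore differ as pools do, and the p-values below measure that variation alone.

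In the healthy spinal cord microglia engulf debris and dying cells, and scavenger receptors are part of that equipment together with phosphatidylserine, complement and Fc receptors. Class A receptors are trimers with a collagen-like stalk, class B receptors cross the membrane at both ends and handle fatty acids and cholesterol, class D is the lysosomal glycoprotein CD68, and class E holds C-type lectins such as LOX-1, the product of *Olr1*. Some of these receptors are also found on monocytes and border macrophages, which carry CD11b too, and on endothelial cells.

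The medians of the 6 arrays lay between log2 signals of 5.93 and 5.97. All 9 measured markers of microglia had a mean signal above 5, and their average per array ran from 11.40 to 11.55 in SOD1 G93A and from 11.32 to 11.52 in WT. Neutrophil markers were also bright, at 10.73 to 11.45 in SOD1 G93A and 11.20 to 12.11 in WT, so microglial markers were not the only bright myeloid markers on the arrays. Several other lists did not overlap between the genotypes. Monocyte markers lay at 8.73 to 9.31 in SOD1 G93A against 9.61 to 10.18 in WT, and border macrophage markers at 8.44 to 8.74 against 8.96 to 9.30. The SOD1 G93A minus WT differences of the astrocyte, oligodendrocyte and neurone lists were -0.81, -0.60 and -0.64. For each of these 5 lists p was 0.1 by the exact permutation test (two-sided), the smallest that 3 arrays against 3 allow. The 3' minus 5' signal of *Gapdh*, larger where RNA copies are shorter, was 3.47 to 4.63 in SOD1 G93A and 4.79 to 5.01 in WT, and the arrays numbered 1 stood apart on the second principal component, with 28.0% of the variance. The *Gapdh* measure did not overlap between the genotypes either, so a fit with it as a covariate cannot tell RNA quality and genotype apart. The same measure of beta-actin did overlap, at 1.92 to 3.36 in SOD1 G93A and 2.90 to 3.88 in WT (p = 0.2 by the exact permutation test). It was not used as a covariate. The part of these differences in the results was not tested.

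Of the 15 probe sets, 3 passed limma's test at an adjusted p under 0.05 over all probe sets, and all 3 were higher in SOD1 G93A. They belong to *Cd68*, *Colec12* and *Msr1*. With each gene read by its probe set of highest signal, 2 of the 7 passed, *Cd68* and *Colec12*, against 5.61% of all genes. Over all probe sets 4.64% passed, 2.71% as higher and 1.93% as lower. The median log2 fold change (SOD1 G93A minus WT) was 0.15 over the 15 probe sets and 0.0032 over all probe sets. At an unadjusted p under 0.05 there were 7 of the 15, against 19.5% of all probe sets. The genotypes did not overlap in 6 of the 15 as higher and in 2 as lower, against 13.4% and 11.3% of all probe sets (24.7% in either direction). *Cd36* was the gene with both of these lower probe sets, and none of its 3 passed. The 6 higher ones include 1422062_at, 1425434_a_at and 1448061_at, which all read *Msr1*. *Marco*, *Olr1* and *Scarb1* had no probe set that passed. *Cd68* and *Colec12* were the members that passed the study's own cut-offs on fold change and on the unadjusted p of the methods' t-test, both as higher, against 1.77% of all probe sets in either direction and 1.04% as higher. That test left 0 probe sets of the array after Benjamini-Hochberg adjustment (5697 at an unadjusted p under 0.05). The present calls and pair-wise comparisons of arrays that the study also used to select genes were not applied here.

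**Figure D1:**
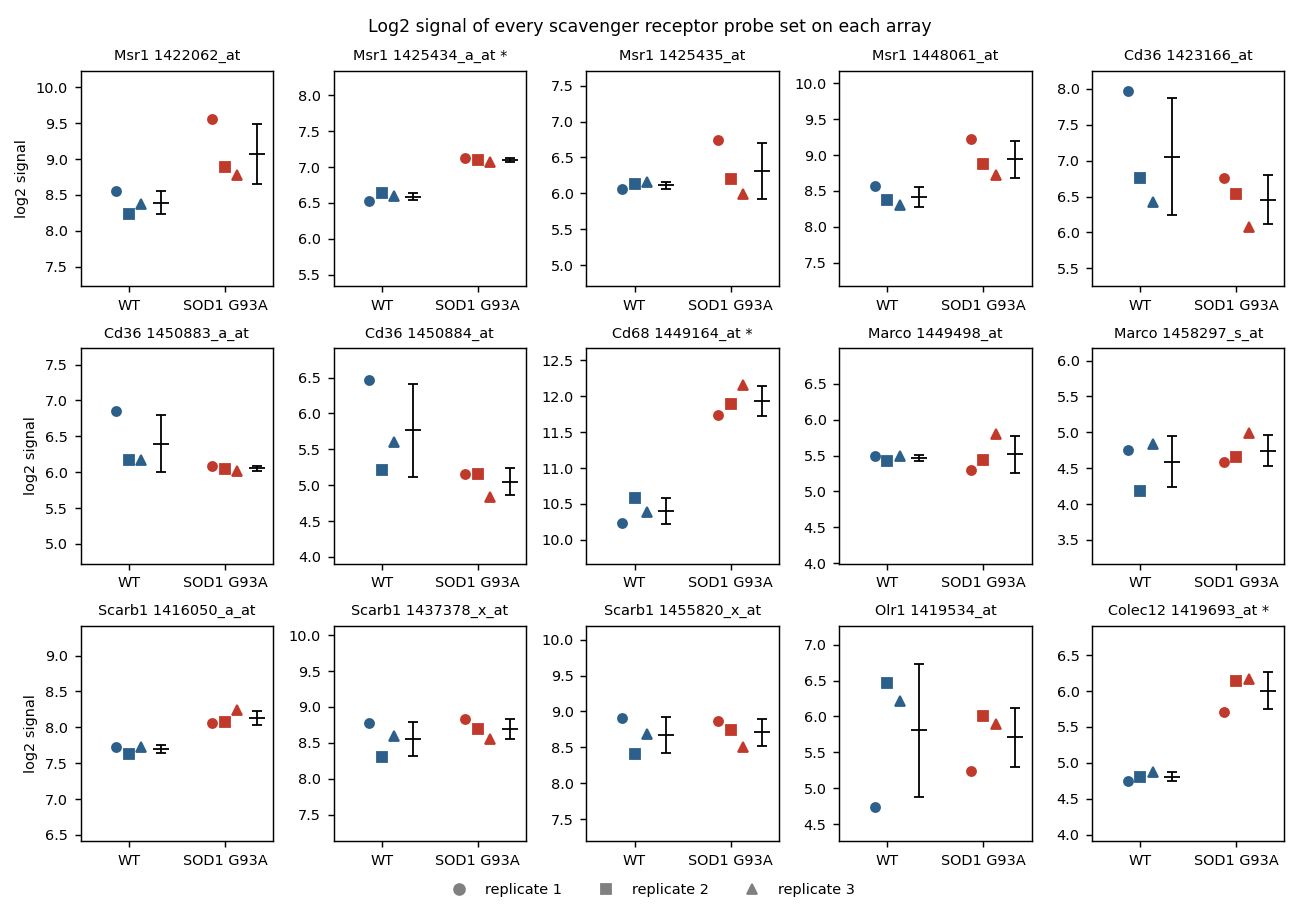
Log2 signal (vertical axis) of the 15 scavenger receptor probe sets on each of the 6 arrays, WT in blue and SOD1 G93A in red, with the replicate number as the shape and the mean and SD (n = 3) in black beside each group. Every panel spans the same log2 range, an asterisk marks the 3 probe sets that passed at an adjusted p under 0.05, and WT replicate 1 lies above the other WT arrays in all 3 *Cd36* panels and below them in the *Olr1* panel.

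*Cd68*, which encodes a heavily glycosylated membrane protein of lysosomes and endosomes that is widely used as a marker of phagocytic cells, had the largest rise of the 7 genes. Its only probe set, 1449164_at, had log2 signals of 11.74, 11.89 and 12.16 in SOD1 G93A replicates 1, 2 and 3, and of 10.23, 10.58 and 10.39 in WT replicates 1, 2 and 3. The genotypes were far apart, with the lowest SOD1 G93A array above the highest WT array. The mean was 11.93 ± 0.21 (SD, n = 3) in SOD1 G93A and 10.40 ± 0.18 (SD, n = 3) in WT, a 2.89-fold rise (1.53 in log2, standard error 0.14, 95% interval 1.21 to 1.86, adjusted p = 0.00174 from limma). By its p the probe set stood at position 63 of 45037. In these sorted pools more RNA per cell and more cells of a kind that holds it cannot be told apart. The mean of the microglial markers differed by 0.07 between the genotypes (p = 0.5 by the exact permutation test), with *Fcrls* called as higher (1.07) and *Sall1* as lower (-0.83) among the 9, and those of monocytes and border macrophages by -0.85 and -0.52. Left out in turn, no array took the rise below 1.42 or its adjusted p above 0.0168. Adding the 3' to 5' measure of *Gapdh* to the fit gave a log2 fold change of 1.23 (adjusted p = 0.0383 from limma), and *Cd68* was the only member that passed there.

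The start of the *Cd68* gene is shown beside that of *Olr1*, since these are the members whose promoters in the RefSeq table held matches of both motif kinds found, 1 of a gene that rose and 1 of a gene that did not pass. RefSeq promoters were given for 4 of the members (*Cd36*, *Cd68*, *Marco* and *Olr1*), each from 250 bases before to 50 after the start of the gene on GRCm38.p6. Capitals mark matches, on either strand, to TGANTCA, the site of AP-1 factors, and to GAGGAA, a core bound by ETS factors such as PU.1, which reads TTCCTC from the opposite strand.
Cd68, chr11:69666121-69666420, minus strand: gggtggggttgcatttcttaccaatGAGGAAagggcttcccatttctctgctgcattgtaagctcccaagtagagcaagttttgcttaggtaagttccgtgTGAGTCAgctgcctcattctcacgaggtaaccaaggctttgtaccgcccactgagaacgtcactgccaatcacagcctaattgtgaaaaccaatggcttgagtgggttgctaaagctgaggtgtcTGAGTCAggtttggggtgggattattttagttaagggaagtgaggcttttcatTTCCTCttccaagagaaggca
Olr1, chr6:129507116-129507415, minus strand: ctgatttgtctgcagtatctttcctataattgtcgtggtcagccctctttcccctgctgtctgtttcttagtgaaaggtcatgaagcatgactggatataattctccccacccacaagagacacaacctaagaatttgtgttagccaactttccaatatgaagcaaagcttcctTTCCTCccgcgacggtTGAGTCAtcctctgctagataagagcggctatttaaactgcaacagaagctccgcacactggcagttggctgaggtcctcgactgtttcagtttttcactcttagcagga
The *Cd68* window held 2 matches of TGANTCA, which begin 149 and 24 bases before the start of the gene, and 2 of GAGGAA, while that of *Olr1* held 1 of each. The *Marco* window held 1 match of GAGGAA, and that of *Cd36* held 0 of either. CACGTG, the E-box of MITF and related factors, was in 0 of the 4. Of the 32851 promoters of this length that RefSeq gave, 7.81% held TGANTCA, 28.3% held GAGGAA and 7.15% held CACGTG. The motifs were chosen after the sequences had been seen, they do not overlap each other, and a match is not a bound site.

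Among the class A receptors *Colec12* rose, *Msr1* rose by 1 of its 4 probe sets, and *Marco* did not pass. *Colec12* encodes a collectin with a collagen-like stalk and a sugar-binding lectin domain, known mainly from endothelial cells. Its only probe set, 1419693_at, had log2 signals of 5.70, 6.15 and 6.16 in the SOD1 G93A arrays and of 4.74, 4.80 and 4.87 in the WT arrays. All SOD1 G93A arrays lay above all WT arrays, and the WT arrays were close together (SD 0.06, n = 3) at a signal below 5, near background. The change was 2.30-fold (1.20 in log2, 95% interval 0.88 to 1.52, adjusted p = 0.00414), a size that is uncertain where 1 group lies near background. The call held with any 1 array left out (1.12 to 1.35). With the *Gapdh* measure in the fit the value was 0.95 and did not pass (adjusted p = 0.0807). Endothelial and mural markers, as a list, averaged 6.43 to 6.81 in SOD1 G93A and 6.40 to 6.56 in WT. The means were 0.16 apart (p = 0.3 by the exact permutation test). 1 of the 10, *Flt1*, was called as higher (0.87, adjusted p = 0.0149 from limma), where 3.53% of all genes passed as higher. Of the 10, 8 had a log2 fold change above 0 and 2 below. The part of these cells in the rise of *Colec12* was not tested.

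*Msr1* encodes SR-A, the first scavenger receptor to be described, which takes up acetylated and oxidised LDL and binds amyloid fibrils. Its 4 probe sets read the same gene from the same RNA, so they are no replicates of each other. Probe set 1425434_a_at had log2 signals of 7.13, 7.10 and 7.08 in SOD1 G93A and of 6.53, 6.63 and 6.60 in WT. Both groups were narrow and well apart, and the change of 1.43-fold (log2 0.51, standard error 0.098) passed with an adjusted p of 0.0243. The probe set with the highest signal, 1422062_at, had 9.55, 8.89 and 8.78 in SOD1 G93A and 8.56, 8.24 and 8.38 in WT. The groups did not overlap, but SOD1 G93A replicate 1 stood above its group, and a 1.60-fold difference of the means, 0.68 in log2 (95% interval 0.23 to 1.13, adjusted p = 0.0950), did not pass. Without that array it was 0.44. Probe set 1448061_at, with 9.22, 8.88 and 8.72 against 8.57, 8.37 and 8.30, had 0.53 (adjusted p = 0.0833) and did not pass either. For 1425435_at the SOD1 G93A arrays had 6.75, 6.20 and 5.98 and the WT arrays 6.06, 6.12 and 6.15, so the groups overlapped, with 0.20 (95% interval -0.21 to 0.61). The direction of this last probe set turned to -0.020 without SOD1 G93A replicate 1, which was the highest array in all 4 probe sets. The call of 1425434_a_at was lost without SOD1 G93A replicate 2 or 3 or WT replicate 2 or 3 (adjusted p = 0.0854, 0.0871, 0.0735 and 0.0864), although its value stayed between 0.49 and 0.54. With the *Gapdh* measure in the fit 1422062_at had 1.14, 1448061_at 0.84 and 1425435_at 0.63 and none of them passed (adjusted p = 0.0785, 0.0919 and 0.196), and 1425434_a_at had 0.54 (adjusted p = 0.174).

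*Marco*, a class A receptor of marginal zone and alveolar macrophages that binds bacteria and particles, was dim on both of its probe sets. Probe set 1449498_at had 5.30, 5.44 and 5.81 in SOD1 G93A and 5.49, 5.42 and 5.50 in WT. The groups overlapped, and the log2 fold change was 0.051 (95% interval -0.27 to 0.37, adjusted p = 0.894). For 1458297_s_at, with a mean signal of 4.67, the values were 4.59, 4.66 and 4.99 against 4.76, 4.18 and 4.84, a log2 fold change of 0.15 (95% interval -0.27 to 0.58). Both intervals hold 0, and their upper ends lie below the lower ends of the intervals of *Cd68* and *Colec12*, though near background a change of signal can understate one of RNA.

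The class B receptors did not pass on any of 6 probe sets, and the 2 genes differed in sign. *Cd36* encodes a receptor for oxidised LDL and long-chain fatty acids that signals through Src-family kinases and Toll-like receptors. Its 3 probe sets, designed from the same reference transcript and so not independent, all had lower means in SOD1 G93A. Probe set 1423166_at had 6.76, 6.54 and 6.08 in SOD1 G93A and 7.97, 6.76 and 6.42 in WT, a log2 fold change of -0.59 (95% interval -1.40 to 0.22, adjusted p = 0.418 from limma). Here the groups overlapped, and WT replicate 1 stood far above the other arrays. It did so again for 1450883_a_at (6.09, 6.05 and 6.02 against 6.85, 6.16 and 6.18) and for 1450884_at (5.15, 5.16 and 4.84 against 6.47, 5.21 and 5.61). On these the groups did not overlap, and the log2 fold changes were -0.34 (adjusted p = 0.347) and -0.71 (standard error 0.28, 95% interval -1.34 to -0.083, adjusted p = 0.197). Without WT replicate 1 the 3 values shrank to -0.13, -0.12 and -0.36. With the *Gapdh* measure in the fit they were 0.00048, -0.22 and -0.34. Monocyte and border macrophage markers were lower in SOD1 G93A as well. WT replicate 1, the highest array for *Cd36*, was the lowest WT array for both lists, at 9.61 and 8.96. Its astrocyte and oligodendrocyte markers, at 8.08 and 8.83, were the highest of all arrays. Its endothelial and mural markers, at 6.56, were the highest of the WT arrays. The part of these cells in the values of *Cd36* was not tested.

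*Scarb1* encodes SR-BI, the HDL receptor, which moves cholesteryl esters into and cholesterol out of cells. Probe set 1416050_a_at had 8.06, 8.07 and 8.24 in SOD1 G93A and 7.73, 7.63 and 7.72 in WT. The groups were apart and narrow. The value of 1.35-fold (log2 fold change 0.43, 95% interval 0.19 to 0.67) did not pass, at an adjusted p of 0.0548. The other probe sets, 1437378_x_at and 1455820_x_at, whose suffix marks probes that may also bind other transcripts, had 0.14 (95% interval -0.19 to 0.46) and 0.038 (95% interval -0.31 to 0.39). Their groups overlapped, and their values followed each other over the arrays, with the lowest signal of each in WT replicate 2 (8.30 and 8.41). So the probe sets of *Scarb1* gave unlike values, and none of them was called.

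*Olr1* encodes LOX-1, a lectin-like receptor for oxidised LDL best known from the endothelium. Its probe set, 1419534_at, had 5.24, 6.00 and 5.89 in SOD1 G93A and 4.74, 6.46 and 6.21 in WT. Both arrays numbered 1 were below the 4 others, the WT group was the most spread of all 15 probe sets (SD 0.93), and the log2 fold change was -0.095 (95% interval -1.02 to 0.83, adjusted p = 0.937 from limma). Without WT replicate 1 it was -0.63 (adjusted p = 0.158), and it changed sign without SOD1 G93A replicate 1 or WT replicate 2 or 3, and the interval leaves a change in either direction possible. Neutrophil markers had their lowest averages on the same 2 arrays, 10.73 in SOD1 G93A and 11.20 in WT, and their part in the values of *Olr1* was not tested. The gene next to *Olr1* among the measured protein-coding genes of GRCm38.p6 is *Clec7a*, which encodes the lectin receptor Dectin-1 and is another scavenger receptor of class E. *Clec7a* rose 2.43-fold (log2 fold change 1.28, adjusted p = 0.00626), with 11.56, 11.86 and 12.26 in SOD1 G93A against 10.60, 10.55 and 10.67 in WT. Of the 14 genes that flank the 7 members 2 passed, where 5.61% of all genes did with 1 probe set per gene, *Clec7a* as higher and *Gnai1*, beside *Cd36*, as lower (-1.04), and those beside *Cd68*, *Mpdu1* (0.39) and *Eif4a1* (0.45), did not.

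**Figure D2:**
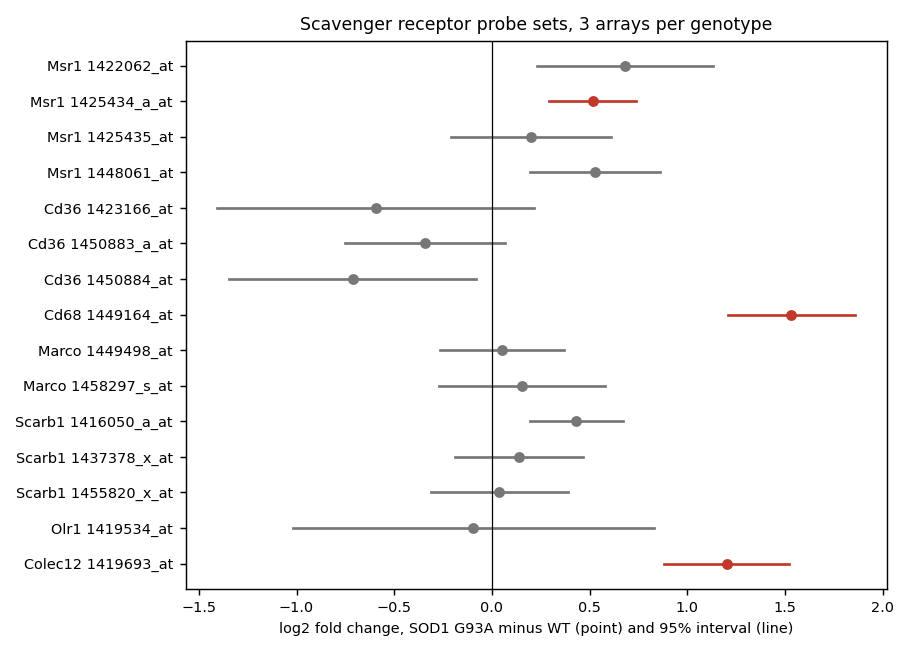
Log2 fold change of each of the 15 probe sets, SOD1 G93A minus WT, as a point, with its 95% interval from limma as a line and red marking an adjusted p under 0.05. The intervals of *Cd68* (1.21 to 1.86) and *Colec12* (0.88 to 1.52) lie farthest from 0, and the widest are that of *Olr1* and those of *Cd36* 1423166_at and 1450884_at.

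**Figure D3:**
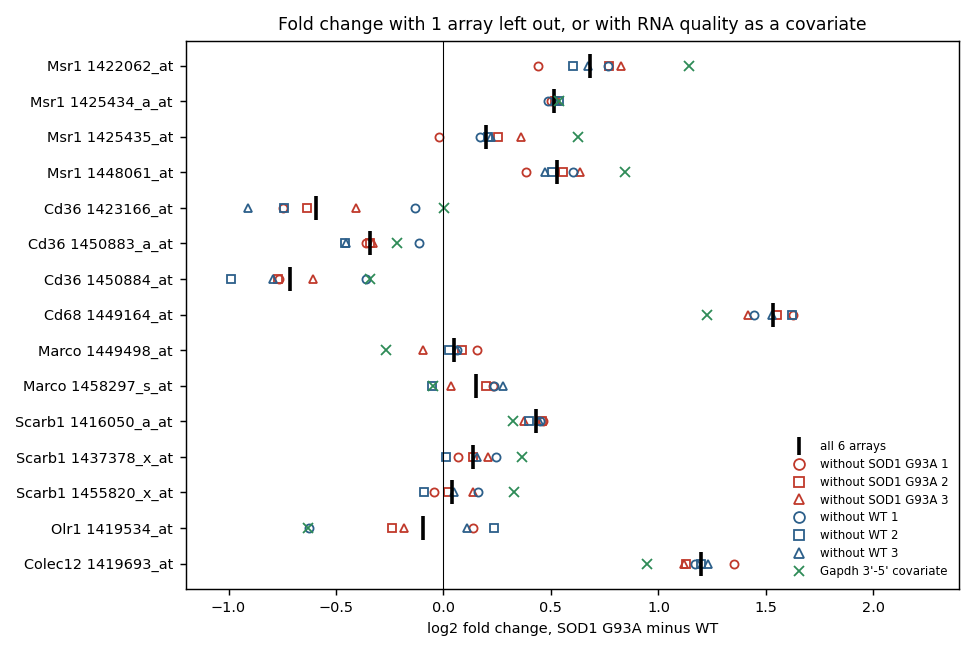
Log2 fold change (horizontal axis, SOD1 G93A minus WT) of each probe set with all 6 arrays (black bar), without 1 array (open symbols, red for a left-out SOD1 G93A array and blue for a left-out WT array, shape for its number) and with the *Gapdh* measure added to the fit (green cross). *Cd68* and *Colec12* stay near their values, at 1.42 to 1.63 and 1.12 to 1.35 with 1 array left out, while *Cd36* moves towards 0 without WT replicate 1 and *Olr1* lies on both sides of 0.

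Of 20 other genes of scavenger receptors and their kin, 2 rose, 1 fell and 17 did not pass, each read by its probe set of highest signal. Of all genes 3.53% passed as higher and 2.08% as lower, and the median log2 fold change was -0.039 in the list and 0.022 over all genes. *Cxcl16*, whose product is both a chemokine and, as SR-PSOX, a receptor for phosphatidylserine and oxidised lipoprotein, had 9.60, 9.94 and 10.65 in SOD1 G93A and 8.25, 8.23 and 8.42 in WT. The arrays of the genotypes were more than 1 log2 unit apart, with a 3.40-fold rise (1.76 in log2, 95% interval 1.24 to 2.29, adjusted p = 0.00643), and the other probe set of *Cxcl16* rose by 2.16. *Clec7a* was the other riser. *Stab1*, which encodes stabilin-1, a receptor for acetylated LDL and the matrix protein SPARC, fell by 0.50 on the log2 scale (adjusted p = 0.0290), with 10.21, 10.31 and 10.17 against 10.74, 10.74 and 10.71. Its call was lost without any 1 of the 6 arrays. *Cd163*, the haemoglobin receptor, and *Mrc1*, the mannose receptor, had -0.84 and -0.71 and did not pass (adjusted p = 0.173 and 0.0582). These 3 genes also stand in the border macrophage list, of which 4 of 10 fell and 1 rose, and the part of border macrophages in their values was not tested. *Cd5l*, a soluble protein with scavenger receptor domains, had 0.69 (adjusted p = 0.0602). *Scarb2*, the lysosomal class B relative of *Cd36*, gave 0.025 by its probe set of highest signal and 0.97 by the other (adjusted p = 0.00772), so its probe sets disagree.

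Genes that work with CD36 and SR-A were read in the same way. Of 14 measured, 5 rose and 9 did not pass, where 3.53% of all genes passed as higher and 2.08% as lower. The list was drawn up with earlier results of these data known. *Tlr2*, the Toll-like receptor for which CD36 presents diacylated ligands, had 11.68, 12.02 and 12.12 in SOD1 G93A and 10.03, 10.61 and 10.50 in WT (a rise of 1.56 in log2, adjusted p = 0.00391). *Cd9*, a tetraspanin found in complexes with CD36, rose by 1.83 and the fatty acid binding protein genes *Fabp5* and *Fabp4* by 1.24 and 0.84, the latter on 1 of 4 probe sets. *Fyn*, a Src-family kinase, rose by 0.48 on 1 of 2 probe sets. *Tlr6* and *Tlr4*, the other Toll-like receptors that pair with CD36, had -0.26 and -0.16 and did not pass, nor did *Itgb1* (-0.40) or *Pik3r5* (-0.27). *Tlr2*, *Cd9* and *Fabp5* passed with any 1 array left out, whereas the call of *Fabp4* held only without SOD1 G93A replicate 1 and that of *Fyn* only without WT replicate 1. With the *Gapdh* measure in limma's fit all 5 lost their calls, as did *Lamp5*, *Mitf* and *Maf* of the lists that follow.

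CD68 belongs by sequence to the LAMP family of lysosomal membrane proteins, so the 4 other measured genes of it were compared. *Lamp1* had 12.99, 13.24 and 13.43 in SOD1 G93A and 12.69, 12.86 and 12.71 in WT, a log2 fold change of 0.47 that did not pass (adjusted p = 0.0860 from limma). *Lamp2* gave -0.13 by its probe set of highest signal, and 1 of its 4 probe sets rose, by 0.78. *Cd164*, a sialomucin, had -0.44 and did not pass, and *Lamp5*, known mainly from neurones and some dendritic cells, fell by 0.61 (adjusted p = 0.0491), a call that held with SOD1 G93A replicate 2 left out and with none of the other 5. Neurone markers were lower in SOD1 G93A too, and their part in that fall was not tested.

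Of 12 transcription factor genes known to act on scavenger receptor or lysosomal genes, 1 rose, 1 fell and 10 did not pass. Among all genes 3.53% passed as higher and 2.08% as lower. *Mitf*, of the MiT family that drives lysosomal genes, had 9.63, 9.64 and 9.38 in SOD1 G93A and 9.03, 9.07 and 9.10 in WT, a rise of 0.48 (adjusted p = 0.0475 from limma). Its other probe set had 0.31 and did not pass, and the call was lost without any 1 of the 6 arrays. *Maf*, a factor of macrophage identity, fell by 0.90 (adjusted p = 0.0208), and 4 of its 6 probe sets fell. Its call was lost without SOD1 G93A replicate 3 or WT replicate 2. *Nfe2l2*, the oxidative stress factor NRF2, had 0.65, *Tfec* had -0.66 and *Cebpa* had 0.26, and none of them passed. *Pparg*, which drives *Cd36* in macrophages, and *Spi1*, which encodes PU.1, had -0.079 and -0.11 (adjusted p = 0.794 and 0.726). The mean signal of *Pparg* was 4.89, near background, where a change of signal can understate one of RNA.

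**Figure D4:**
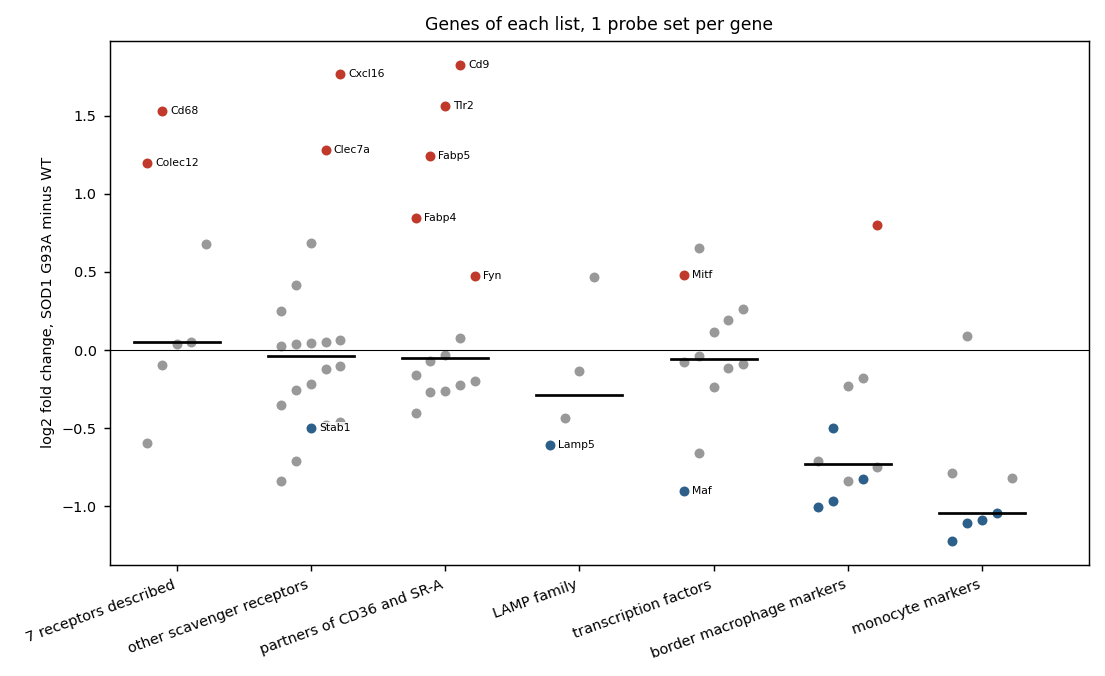
Log2 fold change (vertical axis, SOD1 G93A minus WT) of each measured gene of 7 lists, 1 probe set per gene. Red points passed as higher, blue points passed as lower, grey points did not pass, and black bars give the medians. The medians of the 7 receptors, the other receptors, the partners and the transcription factors lie near 0, at 0.051, -0.039, -0.052 and -0.058. That of the 4 LAMP family genes is -0.29, and those of border macrophage and monocyte markers are -0.73 and -1.04.

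Genes most like *Cd68* and *Colec12* over the 6 arrays were found by the Euclidean distance between log2 profiles, each taken relative to its WT mean, among 14056 genes with a mean signal of at least 5. For *Cd68* these were *Apoe* (distance 0.21, log2 fold change 1.60), which encodes the lipid carrier apolipoprotein E, *Ssr4* (0.22 and 1.43), of the translocon of the endoplasmic reticulum, and *St14* (0.25 and 1.58), a membrane protease gene. For *Colec12* they were *Ptger4* (0.13 and 1.19), a prostaglandin E2 receptor gene, *Mdfic* (0.19 and 1.24) and *Ctsa* (0.21 and 1.16), which encodes lysosomal cathepsin A. With 2 groups of 3 arrays any gene of a like rise and spread comes close, so the distance describes these arrays alone.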

How the data were processed

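The values used are those the authors deposited, on a log2 scale, 1 per probe set for each of 6 whole-genome mouse Affymetrix arrays, and the submitters' processing notes name RMA and Partek. The paper's methods name the MAS software, whose detection calls are not used here, and amplified RNA, whereas the labels describe the standard labelling protocol. Control probe sets (64 of 45101) were left out. The other 45037 were fitted with limma 3.58.1 under R 4.3.3 (lmFit and plain eBayes, genotype alone in the model). Benjamini-Hochberg adjustment ran over all of them. Of these, 34945 have 1 gene symbol, 932 several and 9160 none. Genes outside the 7 were read by the probe set of highest mean signal. Intervals are limma's, at 95%. Single values per array were compared by exact two-sided permutation tests, 10 in all, with adjusted p = 0.167 or above. Alternatives were the methods' t-test, eBayes with trend and robust settings, a signal minimum, other scaling, array weights and a replicate block. Further ones were the *Gapdh* 3' minus 5' signal as a covariate and leaving out each array. For the members, fits with 1 probe set per gene and without suffixed probe sets were added.

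Members, lists and named genes were chosen with earlier results of these data known. Named are all member probe sets and, of each list, the genes that passed and up to 3 others of largest change, the 3 genes nearest to each called member in its probe set of highest signal, and some flanking genes, besides *Scarb2*, *Lamp2*, *Tlr4*, *Pparg* and *Spi1*, named after their values were seen. Some genes of the lists are not reported here. Same-numbered arrays deviated together with correlations of 0.44, 0.24 and 0.029, and arrays of unlike numbers with -0.49 to 0.40. The numbers were not taken to pair the arrays, and a fit with a replicate block is given as an alternative. On simulated data of 3 arrays against 3 and 45037 probe sets, 10 of 50 changes of 1.5-fold, 28 of 50 of 2-fold and 48 of 50 of 4-fold were recovered. There 44837 probe sets were left unchanged, so far fewer changed than the 2089 that passed in these data. The adjustment is stricter where few probe sets change, so these shares do not carry over to the fit reported here. Precision is limited by the number of arrays, which carry no read depth. Python 3.11.15 with pandas 2.3.3, scipy 1.17.1 and matplotlib 3.10.9 served for lists and figures. The other experiments of the study are not analysed here.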

Additional observations from a re-analysis of the deposited data

How the results depend on the processing

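The 3 called scavenger receptor probe sets became 0 with the methods' t-test, 5 with array weights, 6 with the replicate block and 1 (*Cd68*) with the *Gapdh* covariate, and 2 to 3 with 1 array left out. The 3 other scavenger receptors called became 0, 5, 6 and 0 in the same fits, and 2 to 4 with 1 array left out. The 8 partner and regulator genes became 0 with the t-test, 9 with array weights, 11 with the replicate block and 0 with the covariate. They became 5 with quantile normalization again and 3 to 6 with 1 array left out. Over all probe sets 2089 became 0, 3549, 4519 and 129 in the 4 fits named first, and 479 to 2195 with 1 array left out (585 and 479 without SOD1 G93A replicates 2 and 3, 655 and 553 without WT replicates 2 and 3). The cause of these shifts was not tested. The block, whose numbers were not taken to pair the arrays, left the values of members as they were and added 2 probe sets of *Msr1* (adjusted p = 0.0126 and 0.0184) and 1 of *Scarb1* (0.0395). That *Scarb1* probe set also passed with a minimum mean signal of 5 (0.0456), centred arrays (0.0498) and array weights (0.0321), where *Msr1* 1448061_at passed as well (0.0422). Without both arrays numbered 1, a setting chosen after seeing the data, 4 probe sets passed, *Msr1* 1422062_at among them (0.0353).

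Among the 15 probe sets, directions turned in some of those that did not pass. With the covariate *Cd36* 1423166_at had 0.00048, *Marco* 1449498_at -0.27 and 1458297_s_at -0.050. With 1 array left out, *Msr1* 1425435_at had values from -0.020 to 0.36 (-0.047 without both arrays numbered 1), *Marco* 1449498_at from -0.093 to 0.16 and 1458297_s_at from -0.053 to 0.28, *Scarb1* 1455820_x_at from -0.093 to 0.16 (-0.044 without SOD1 G93A replicate 1), and *Olr1* from -0.63 to 0.23 (0.14 without SOD1 G93A replicate 1, 0.11 without WT replicate 3). *Cd68* passed in 16 of 17 alternatives, with values of 1.23 to 1.63, and *Colec12* in 15 of 17. Several of these change only the error estimate or which other probe sets are fitted. The fold change cannot move in those, so a kept direction there is no support. The low signals of the *Marco* and *Olr1* probe sets, between 4.18 and 6.46, limit what their values can show.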
